A study of Mus musculus with 6 samples.

Results

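The oligoadenylate synthetase family was examined in mouse lung after endotoxin, over the 7 genes Oas1a, Oas1b, Oas1g, Oas2, Oas3, Oasl1 and Oasl2. A gene was taken as measured where a probe of the array carried the accession of one of its RefSeq transcripts. This gave 8 probes for 6 of the 7 genes, among 56605 probes in all. No probe matched Oas1b, which is not analysed here. The family was picked on the reading that Oas1a, Oas3 and Oasl2 were higher in mice given antithrombin while other interferon genes were not. That reading does not hold for every such gene. Of 69 other interferon-induced genes tested, 14 were higher with no overlap of the treatment groups and 0 lower (10.7% and 18.1% of everything tested). Saline mouse 2 was the lowest saline mouse for 50 of them, which left less room for a count of lower genes. The difference between the treatment groups thus chose the family and is given for its genes as a description with no test.

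RNA came from the lungs of 6 male C57BL6 mice aged 10 weeks, hybridised to 1-colour Agilent arrays, 1 array a mouse. Every mouse had gone 16 h without food and had then received lipopolysaccharide (LPS), the bacterial cell wall component used to bring on endotoxin shock, by intraperitoneal injection at 20 mg/kg. The saline group (3 mice) was given saline, and the antithrombin group (3 mice) recombinant anti-thrombin at 750 IU/kg, at 3 h and 24 h after LPS. Lungs were taken at 30 h. Antithrombin is the plasma protein that inhibits thrombin and other clotting proteases. No mouse without LPS was analysed here, so the values say nothing of what LPS itself did to these genes.

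The family belongs to the antiviral arm of the interferon response. Interferon binding to its receptor activates a transcription factor complex that includes STAT2 and IRF9 and binds interferon-stimulated response elements in promoters of interferon-induced genes. The enzymes sense double-stranded RNA and then make 2'-5'-linked oligoadenylates (2-5A), a second messenger of the antiviral response. In mice Oas1a, Oas1g, Oas2 and Oas3 encode active synthetases, Oasl2 a synthetase that also carries ubiquitin-like domains, and Oasl1 an inactive relative that restrains translation of the transcription factor IRF7. Oas1b is the flavivirus resistance gene Flv, which is truncated in C57BL/6 mice. LPS itself induces interferon beta through TLR4.

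Promoter sequence was available from RefSeq for 5 of the measured genes. Oasl2 is not shown and, like Oasl1, held no exact match in this window to the interferon-type element marked below. The other 4 are shown. Each is the 250 bases before the annotated start, 5' to 3', in build GRCm38.p6, with every match on either strand to GAAA, 2 bases of any kind and GAAA again in capitals. Oas1a is at chr5:120907526-120907775 (minus strand), Oas1g at chr5:120887614-120887863 (minus strand), Oas3 at chr5:120777660-120777909 (minus strand) and Oasl1 at chr5:114922990-114923239 (plus strand).
Oas1a: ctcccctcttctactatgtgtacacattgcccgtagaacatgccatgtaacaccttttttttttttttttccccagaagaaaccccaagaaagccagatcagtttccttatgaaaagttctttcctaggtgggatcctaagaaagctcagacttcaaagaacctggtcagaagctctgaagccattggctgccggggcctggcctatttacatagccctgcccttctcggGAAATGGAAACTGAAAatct
Oas1g: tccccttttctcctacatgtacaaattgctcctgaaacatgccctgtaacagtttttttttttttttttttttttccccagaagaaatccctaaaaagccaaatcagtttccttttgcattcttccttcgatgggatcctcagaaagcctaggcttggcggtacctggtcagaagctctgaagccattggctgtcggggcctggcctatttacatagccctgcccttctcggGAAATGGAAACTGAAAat
Oas3: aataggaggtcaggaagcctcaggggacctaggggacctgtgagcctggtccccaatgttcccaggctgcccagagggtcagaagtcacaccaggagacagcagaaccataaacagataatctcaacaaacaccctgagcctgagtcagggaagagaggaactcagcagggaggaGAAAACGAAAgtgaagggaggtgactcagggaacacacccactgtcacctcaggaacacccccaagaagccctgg
Oasl1: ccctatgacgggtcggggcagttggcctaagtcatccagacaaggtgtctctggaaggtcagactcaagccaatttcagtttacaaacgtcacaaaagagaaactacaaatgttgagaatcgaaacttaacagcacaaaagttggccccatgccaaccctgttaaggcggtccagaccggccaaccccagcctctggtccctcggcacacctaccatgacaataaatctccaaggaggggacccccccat

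This paired GAAA motif is the core of the interferon-stimulated response element. It was found in Oas1a, Oas1g and Oas3, 3 of the 5 promoters read (250 bases before the start to 50 after), and in 3.44% of all 32851 promoters of that length. In Oas1a it began at base -20 and again at base -14, and in Oas1g at bases -18 and -12, so that both genes held the same pair of overlapping matches just before the start. In Oas3 the 1 match began at base -75. The longer form that ends in CT, which contains the first motif, was in Oas1a and Oas1g and in 0.271% of all promoters. The palindrome TTCNNNGAA, the core of the gamma-activated site, was in Oas1a alone of the 5, at base -98, and in 8.30% of all promoters. Oasl1 and Oasl2 held none of the 3 motifs in this window. The Oas1a and Oas1g sequences were 82.8% identical over their alignment, the closest pair among the 8 family promoters available. Among the 3 other Oas1 promoters in the table, Oas1c held 2 matches to the paired GAAA motif and the longer form, while Oas1f and Oas1h held none of the 3 motifs. These matches are letters in a window and show no binding, and whether they go with the differences below was not tested. In log2, antithrombin minus saline, Oas1a, Oas1g and Oas3 differed by 1.01, 1.34 and 0.95, and Oas1c, which also held matches, by -0.28. Of the tested genes with no match, Oas1f differed by 0.99, Oasl2 by 0.77 and Oasl1 by 0.23.

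All values below are log2 signals relative to the 75th percentile of the array, so 1 unit is a doubling and 0 is the level below which 75% of probes lie. Probes differ in how strongly they hybridise, so a level is set against the same probe in other mice and never against another gene. A bulk lung sample cannot tell fewer cells of a type from less RNA per cell. Between 69.8% and 72.1% of probes were well above background on each array, no spot was saturated, and all 6 arrays lay on 1 slide scanned on 1 date. Saline mouse 2 stood nearer to the antithrombin arrays (mean Pearson r of 0.993 across genes) than to the other saline arrays (0.989), so values without it are given where they matter. With 1 array a mouse, precision is limited by how few arrays there are.

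Oas1a, one of the active 2-5A synthetases, read 3.24, 3.94 and 3.36 in saline mice 1 to 3 and 4.81, 4.30 and 4.48 in antithrombin mice 1 to 3. The groups did not overlap, and saline mouse 2 was the saline mouse nearest to them. The group means were 3.52 ± 0.38 and 4.53 ± 0.26 (SD, n = 3 each), a difference of 1.01 (SE 0.22) or 2.02-fold. Without saline mouse 2 the difference was 1.23.

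Oas1g, its neighbour on the chromosome and the gene with the most similar promoter, read -2.84, -2.16 and -2.77 after saline and -0.96, -1.38 and -1.41 after antithrombin. All 3 antithrombin mice lay above all saline mice, by at least 0.75, and saline mouse 2 again led its group. Its difference of 1.34 (SE 0.22), or 2.53-fold, was the largest value in the family, but with normexp background correction it was 0.93, below the 1.02 of Oas1a.

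Oas3, the largest synthetase, read -2.20, -2.01 and -1.79 after saline and -0.66, -1.21 and -1.28 after antithrombin. The groups did not overlap, and antithrombin mouse 1 was the highest. The difference was 0.95 (SE 0.20) or 1.93-fold, with SDs of 0.21 after saline and 0.34 after antithrombin (n = 3 each).

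Oas2, the synthetase that works as a dimer, was read by 2 probes. The brighter gave 3.08, 3.28 and 3.30 after saline and 3.92, 3.77 and 3.56 after antithrombin, a difference of 0.53 (SE 0.13) or 1.44-fold with no overlap. The saline mice were tightly grouped on this probe (SD 0.12). The other probe was dim, well above background on 2 of 3 saline and 3 of 3 antithrombin arrays, and read -7.50, -5.87 and -5.64 against -5.08, -4.82 and -5.84. Its groups overlapped, and its difference of 1.09 had an SE of 0.51.

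Oasl2, the enzymatically active relative with ubiquitin-like domains, read 2.90, 2.67 and 2.82 after saline and 3.75, 3.67 and 3.29 after antithrombin. The groups did not overlap, and here saline mouse 2 was the lowest of all. The difference was 0.77 (SE 0.15) or 1.71-fold, and the saline SD was 0.11.

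Oasl1, the inactive member that acts on IRF7, was the exception. Its brighter probe read 2.15, 1.60 and 2.85 after saline and 2.64, 2.25 and 2.40 after antithrombin. The antithrombin mice all lay within the saline range, which was set by a low saline mouse 2 and a high saline mouse 3. The difference was 0.23 (SE 0.31) and turned to -0.072 without saline mouse 2. The second Oasl1 probe gave the same picture, with -0.34, -0.73 and 0.23 against 0.21, -0.10 and -0.10, and a difference of 0.28 (SE 0.25), or 0.06 without saline mouse 2.

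**Figure D1:**
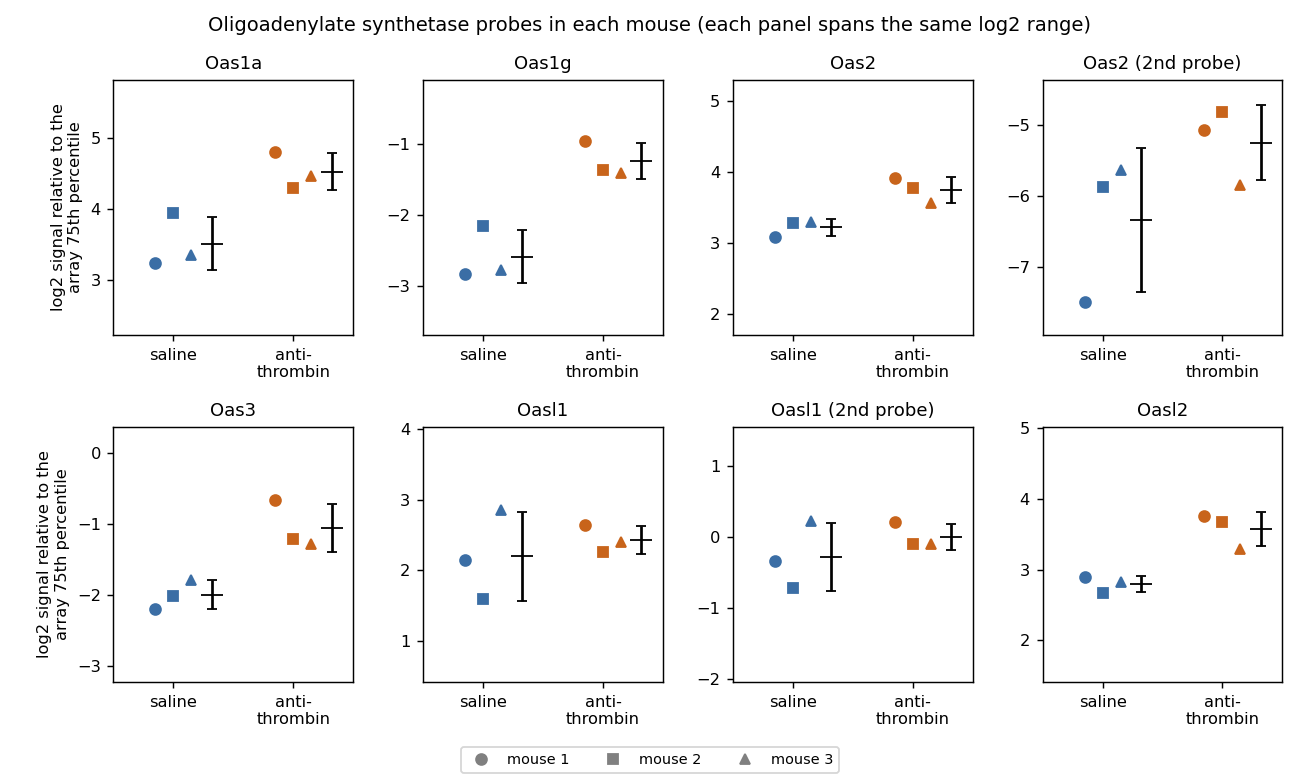
The y axis is the log2 signal relative to the 75th percentile of the array, for the 8 probes of the 6 measured genes, with mice as symbols, blue for saline and orange for antithrombin, and black bars are the mean and SD of 3 mice. The groups part for Oas1a, Oas1g, the brighter Oas2 probe, Oas3 and Oasl2, and overlap for both Oasl1 probes and the dim Oas2 probe.

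All 6 measured members passed the filter on dim probes, each well above background on all 6 arrays. The 3 antithrombin values lay above the 3 saline values for 5 of the 6, as they did for 10.7% of the 32456 genes and unnamed probes tested. Since this contrast picked the family, nothing is read from that count. The median difference over the 6 members was 0.86, beside -0.05 over everything tested. In order of size the differences ran Oas1g, Oas1a, Oas3, Oasl2, Oas2 and Oasl1. In 5 of 5 neighbouring pairs they differed by less than the sum of their SEs. All members were read in the same mice, and that sum leaves out what the mice share, so it cannot settle the order. The order was not tested. No member passed the Benjamini-Hochberg adjustment of the limma fit over all genes, which called 2 of 32456 (0.00616%), 1 higher (0.00308%) and 1 lower (0.00308%). Without saline mouse 2, 2 members, Oas1a and Oas1g, passed (4.65% of everything tested were higher), from which nothing is read. The difference was above 0 for 6 of 6 members (5 of 6 without saline mouse 2), as for 43% of everything tested. The same contrast picked the family, so nothing is read from this count either.

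Antithrombin mouse 1 was the highest antithrombin mouse for all 6 members, where it was the highest for 30.6% of everything tested. These values entered the contrast that picked the family, and all members were read in the same mice. The count is therefore a description and no separate support. Among other interferon-induced genes it was the highest antithrombin mouse for 44 of 69. The mean over the 6 members, less the saline mean, was 1.06 in that mouse against 0.71 and 0.65 in antithrombin mice 2 and 3. Leaving out the highest antithrombin value lowers a difference by construction. Leaving out antithrombin mouse 1 gave the smallest difference among single-mouse omissions for 5 members, 0.87 for Oas1a, 1.20 for Oas1g, 0.44 for Oas2, 0.75 for Oas3 and 0.68 for Oasl2.

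The saline mice also differed among themselves. The same saline values entered the contrast that picked the family, so these differences are described and are no separate support. Saline mouse 2 lay 0.64 above the mean of saline mice 1 and 3 for Oas1a and 0.65 above it for Oas1g. It lay 0.09 above that mean for Oas2 and 0.01 below it for Oas3. For Oasl2 it was 0.18 lower and for Oasl1 0.90 lower. It was thus the highest saline mouse for 2 members (36.7% of everything tested) and the lowest for 2 (39.3%). The 5th and 95th percentiles of this deviation over everything tested were -0.71 and 0.66, so the Oas1a and Oas1g deviations were near the upper one and that of Oasl1 was beyond the lower. It rests on 1 mouse against 2 and was not tested.

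Most other interferon-induced genes went the way of Oasl1 in that mouse. Of 69 tested genes of a list of 77, saline mouse 2 was the lowest saline mouse for 50 and the highest for 13. The median over the list of its deviation from the mean of saline mice 1 and 3 was -0.32. Ifit1, which binds viral RNA lacking cap methylation, read 1.64, 0.08 and 2.10 after saline, with saline mouse 2 lower by 1.78 than the mean of the others. The guanylate-binding protein genes Gbp5 and Gbp2 were lower there by 1.95 and 1.23, the antiviral gene Rsad2 by 1.50, and the ubiquitin-like modifier Isg15 by 0.93. Gbp5, Gbp2 and Rsad2 were named after their values were seen and lie at the low end of the list. Among the 25 receptor and signalling genes it was the lowest saline mouse for 9 and the highest for 9, with Stat2 lower by 0.82 and Tyk2 higher by 0.48. After antithrombin Ifit1 read 1.31, 1.41 and 0.94, inside the saline range.

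**Figure D2:**
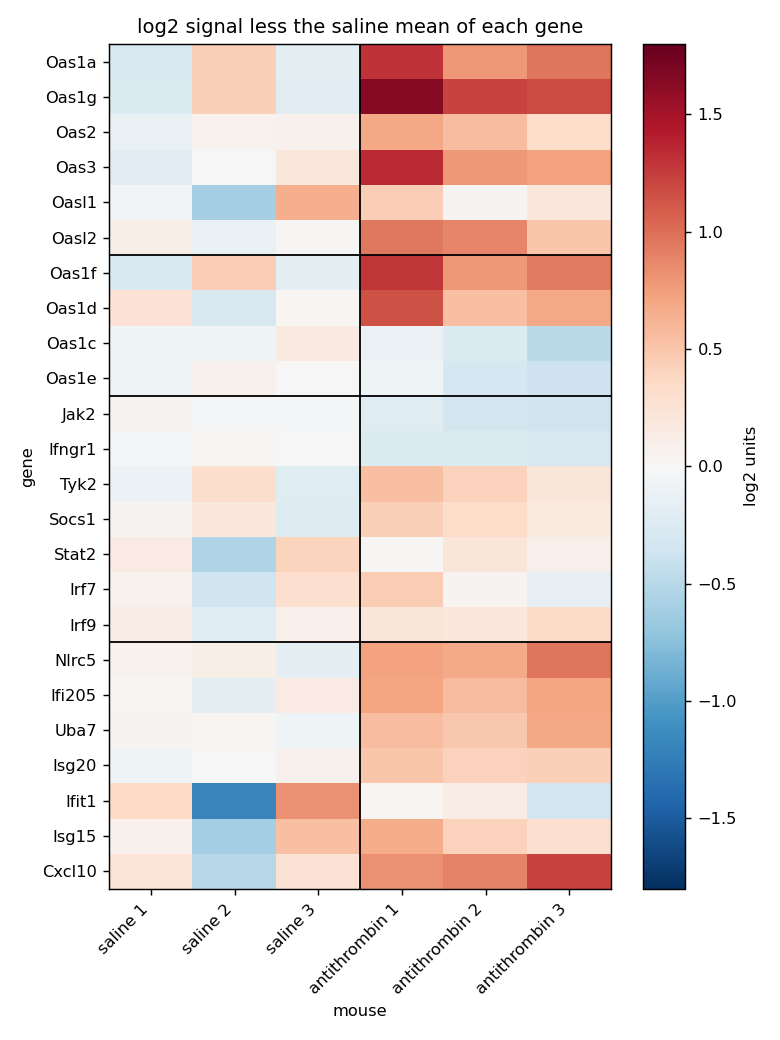
Colour gives the log2 signal less the saline mean of each gene (red higher, blue lower) in the 6 mice, with rows in 4 blocks for members, other Oas1 genes, receptor and signalling genes and interferon-induced genes. Saline mouse 2 is low for Oasl1, Ifit1, Isg15 and Stat2 and high for Oas1a, Oas1g and Oas1f, and all 6 members are above their saline mean in every antithrombin mouse, Oasl1 least.

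The other Oas1 genes lie in the same cluster on chromosome 5, in the order Oas2, Oas3, Oas1e, Oas1c, Oas1f, Oas1h, Oas1g, Oas1a and Oas1d among protein-coding genes, with Oas1b between Oas1c and Oas1f. Oas1f read 1.78, 2.49 and 1.87 after saline and 3.33, 2.82 and 2.98 after antithrombin, a difference of 0.99 (SE 0.23). Oas1d, a synthetase-like gene known from the ovary, read -1.80, -2.35 and -2.03 against -0.92, -1.52 and -1.39, a difference of 0.79 (SE 0.21). Both genes were higher without overlap of the groups, as were 10.7% of everything tested. Oas1c and Oas1e, which lie between Oas3 and Oas1f, differed the other way, by -0.28 (SE 0.14) and -0.25 (SE 0.12). Oas1c was lower without overlap, by a gap of only 0.017, and the groups overlapped for Oas1e. A second Oas1c probe differed by -0.07 (SE 0.36). No probe of Oas1h was well above background on any array. None of the 4 tested genes passed the adjusted threshold (limma, lowest adjusted p = 0.153). Without saline mouse 2, 1 of them was higher past it, as were 4.65% of everything tested. On either side of the cluster, Cfap73, Dtx1, Ptpn11 and Rpl6 had differences of -0.30, -0.08, -0.19 and -0.02, with Ptpn11 alone of these without overlap. Beside Oasl2 and Oasl1, the 4 tested neighbours ranged from -0.47 for Sppl3 to 0.11. Of these, Sppl3 and 2210016L21Rik (-0.09) were lower without overlap, as were 18.1% of everything tested.

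**Figure D3:**
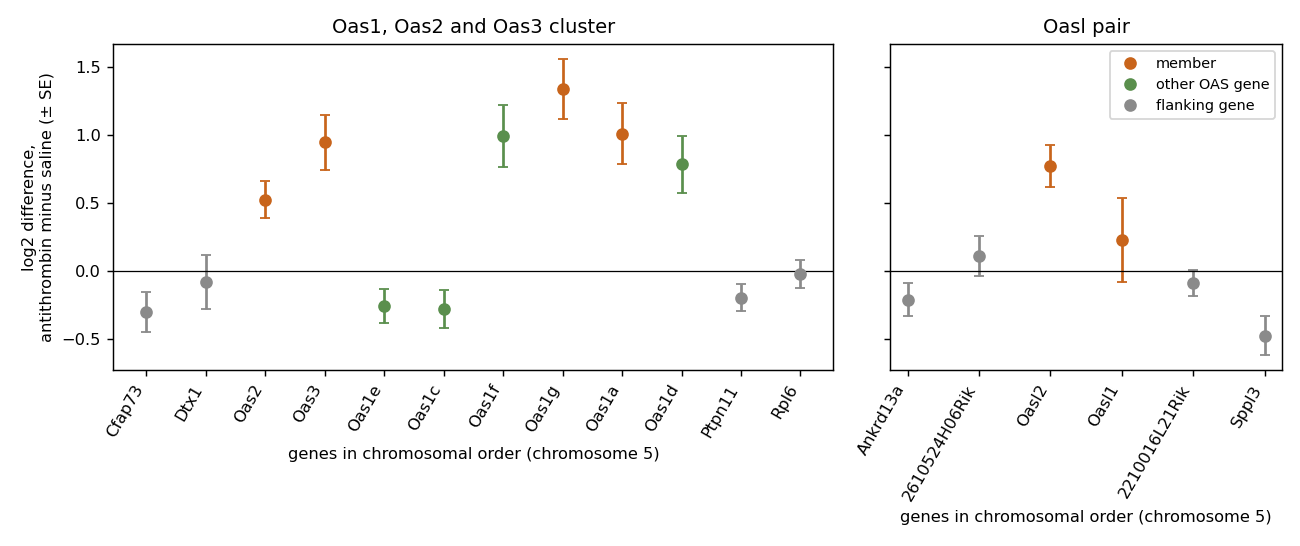
The y axis is the log2 difference, antithrombin minus saline, with its SE from the limma fit, for tested genes in chromosomal order and up to 3 flanking genes on each side (members orange, other Oas genes green, flanking genes grey). The 6 members and Oas1f and Oas1d lie above 0, Oas1e and Oas1c lie below it, and the flanking genes lie between -0.47 and 0.11.

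The Oas1a and Oas1f readings ran in parallel. After centring each gene on its mean over the 6 mice they differed by a root mean square of 0.015 log2. Of 32425 other rows Oas1f was the nearest to Oas1a, and the next was Cenpm at 0.065. The median for 2 probes of the same gene was 0.16 over 5974 genes, of which 3 had a pair as close as Oas1a and Oas1f. The Oas1 genes are similar in sequence, and whether the Oas1a, Oas1f and Oas1g probes take up transcript of one another was not tested, because no probe sequence was used here. The values of all 3 are therefore uncertain as readings of 1 gene alone. By the same measure Oas1a and Oas1g differed by 0.18.

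Of genes outside the family, the 8 most like the mean of the 6 members over the 6 mice were Noxo1, Slfn3, Nlrp12, G6pd2, Hsh2d, Nnat, Thada and Slc5a1. Their root mean square differences from it ran from 0.12 to 0.14 log2 over 16585 genes compared. Noxo1, an organiser of NADPH oxidase, read 0.84, 1.09 and 0.80 after saline and 1.89, 1.65 and 1.57 after antithrombin. Slfn3, of the schlafen family, read -1.24, -0.90 and -0.93 against 0.28, -0.04 and -0.24. These genes were chosen for a pattern that includes the antithrombin difference, so their differences are no separate result.

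The rest of the pathway was described from lists of 149 genes, of which 133 were tested. None passed the adjusted threshold in either direction (limma, lowest adjusted p = 0.151), and with no adjustment, p was under 0.05 for 18 that were higher and 6 that were lower, where 8.73% and 12.9% of everything tested were higher and lower. Without saline mouse 2, 9 were higher and 4 lower at the adjusted threshold, beside 4.65% and 5.88% of everything tested. The median difference over the 133 was 0.06.

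Of the 6 genes of the 2-5A pathway list, all were tested, and the groups overlapped for each. Pde12, which degrades 2-5A, differed by 0.32 (SE 0.20), Abce1, an ATP-binding cassette protein of ribosome recycling, by 0.24 (SE 0.16), Enpp1 by -0.39 (SE 0.15) and Pde2a by -0.11 (SE 0.11). The median of the list was -0.12.

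Among 18 nucleic acid sensing genes 12 had a positive difference, with a median of 0.08, and none passed the adjusted threshold. Unadjusted p was under 0.05 (limma) for 4 higher and 2 lower, beside 8.73% and 12.9% of everything tested. Without saline mouse 2 the median turned to -0.03 with 8 of 18 positive, and 3 were higher past the adjusted threshold (4.65% of everything tested). Cgas, which makes the second messenger cGAMP from cytosolic DNA, read 0.61, 0.98 and 0.37 after saline and 1.32, 1.22 and 1.17 after antithrombin, a difference of 0.58 (SE 0.17). Its partner Sting1 differed by 0.42 (SE 0.14), also without overlap. Dicer1, which cuts double-stranded RNA, differed by -0.39 (SE 0.12), with the groups apart in the other direction. The adjusted p of these 3 genes lay between 0.162 and 0.174 (limma).

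Of 18 interferon genes listed, 11 were tested, each well above background on all 6 arrays, and 9 of the 11 had a negative difference (median -0.15). Ifnb1, the interferon that LPS induces, was not well above background on any of the 6 arrays. Ifng read -3.28, -3.34 and -4.16 after saline and -4.19, -3.85 and -2.49 after antithrombin, with no separation of the groups (difference 0.08, SE 0.47). Ifnl3 differed by -0.29 (SE 0.11), Ifna11 by -0.39 (SE 0.20), Ifna2 by -0.27 (SE 0.13) and Ifnk by 0.32 (SE 0.16). None passed the adjusted threshold (limma; unadjusted p under 0.05 for 0 higher and 1 lower, beside 8.73% and 12.9% of everything tested).

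Of 25 genes for receptors and signal transduction 16 had a positive difference, with a median of 0.09, and none passed the adjusted threshold. Unadjusted p was under 0.05 (limma) for 0 higher and 2 lower, beside 8.73% and 12.9% of everything tested. Without saline mouse 2 the median turned to -0.03, with 12 of 25 positive. Stat2 read 3.03, 2.34 and 3.29 after saline and 2.91, 3.11 and 2.98 after antithrombin. It differed by 0.11 (SE 0.24) and Irf7 by 0.12 (SE 0.22), each with the antithrombin mice overlapping the saline range. Irf9, a DNA-binding partner of STAT2, differed by 0.25 (SE 0.13) without overlap. Ifngr1, the interferon gamma receptor chain, differed by -0.27 (SE 0.10) and Jak2 by -0.30 (SE 0.10), also without overlap. Tyk2 stood at 0.39 (SE 0.17) and the feedback inhibitor Socs1 at 0.31 (SE 0.15).

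Among the 69 other interferon-induced genes tested, 46 had a positive difference, and the median was 0.15. None passed the adjusted threshold (limma; unadjusted p under 0.05 for 12 higher and 0 lower, beside 8.73% and 12.9% of everything tested). Without overlap 14 were higher and 0 lower (10.7% and 18.1% of everything tested), and 5 exceeded 0.5, as did 7.61% of everything tested. Without saline mouse 2 the median was -0.02 with 34 of 69 positive, while over the Oas and Oasl members it was 0.83 with 5 of 6 positive. With that mouse left out, 5 of the 69 were higher and 4 lower past the adjusted threshold. The shares of everything tested were then 4.65% and 5.88%. Nlrc5, the activator of MHC class I genes, differed by 0.79 (SE 0.13), Ifi205 by 0.66 (SE 0.12), Uba7, the activating enzyme for Isg15, by 0.58 (SE 0.11) and the exonuclease gene Isg20 by 0.45 (SE 0.10). The chemokine gene Cxcl10 differed by 0.97 (SE 0.24), Isg15 by 0.46 (SE 0.29) and Ifit1 by -0.05 (SE 0.49). The members were picked as differing from these genes, some of which were higher as well, and that contrast was not tested. No probe was matched to Mx1.

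**Figure D4:**
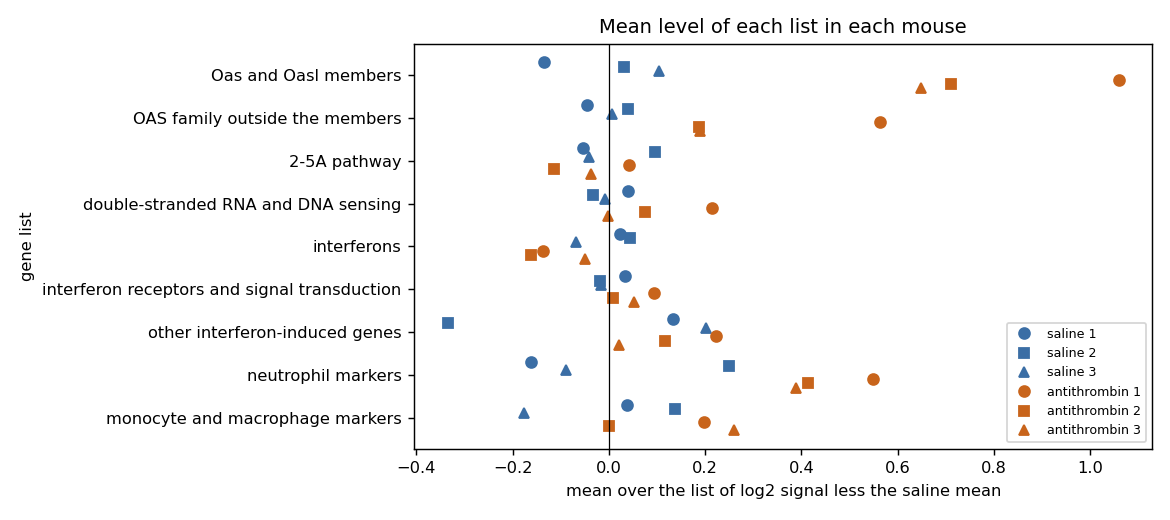
The x axis is a list mean, taken over its tested genes after each gene's saline mean was subtracted in log2, for each of the 6 mice (blue saline, orange antithrombin). For the Oas and Oasl members the antithrombin mice lie at 0.65 to 1.06 and the saline mice at -0.13 to 0.10, while for other interferon-induced genes the groups overlap, with saline mouse 2 apart at -0.34.

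Markers of cell types were read beside these values. Lung markers were present, with 14 of 14 (surfactant genes, Ager and others) well above background on all 6 arrays, and 13 of 14 had a negative difference (median -0.16). Of 10 endothelial markers 9 had a negative difference (median -0.15). Positive differences were seen for 7 of 10 epithelial (median 0.12), 5 of 7 tested B cell (median 0.27) and 8 of 13 T and NK cell markers (median 0.06). Without antithrombin mouse 3 the medians were 0.13 (6 of 10 positive), -0.08 (3 of 7) and -0.16 (2 of 13). With all 6 mice, no marker of any list passed the adjusted threshold (limma; lowest adjusted p = 0.153). Unadjusted p was under 0.05 (limma) for 8.73% of everything tested as higher and 12.9% as lower. The counts, higher and lower, were 5 and 0 for neutrophil, 3 and 0 for monocyte and macrophage, and 3 and 2 for epithelial markers. They were 1 and 1 for endothelial, 1 and 0 for B cell, 1 and 0 for dendritic cell, 0 and 0 for T and NK cell, and 0 and 2 for lung markers. Of 14 tested neutrophil markers 11 had a positive difference, with a median of 0.35. The mean of that list, less its saline mean, was 0.25 in saline mouse 2 and -0.16 and -0.09 in saline mice 1 and 3. In the antithrombin mice it was 0.39 to 0.55. Their summed signal, relative to the 75th percentile, ran from 1415 to 1607 after saline and from 1527 to 1656 after antithrombin. The same sum for 20 monocyte and macrophage markers ran from 794 to 907 after saline and from 776 to 818 after antithrombin, and 11 of 20 had a positive difference. Of 10 tested dendritic cell markers 7 had a positive difference, with sums of 272 to 284 and 259 to 289. All tested neutrophil and monocyte markers were well above background on all arrays, as were 9 of the 10 dendritic cell markers. The mean of the epithelial list was 0.17 in saline mouse 2, -0.14 and -0.03 in saline mice 1 and 3, and 0.12 to 0.27 in the antithrombin mice. The part of any of these cell types in the Oas values was not tested.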

How the data were processed

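Lung RNA of 6 mice was measured on 1-colour Agilent arrays. Spot intensity was taken from the deposited scanner output, made with Agilent Feature Extraction 10.7.3.1 per the file headers (9.1 per the submitters' processing notes). The processed signal is background-subtracted and not scaled between arrays. A second deposited table gives log2 values per array. After 1 shift for each probe and 1 for each array, 100% of its entries lay within 0.01 of the log2 scanner signal. Its column medians ran from -0.04 to 0.08, and the origin of its centring and scaling is unknown.

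Control and outlier spots were left out, spots of a probe averaged in log2, and each array's 75th percentile over non-control probes subtracted. Accessions were matched without version to RefSeq transcripts of GRCm38.p6, which named 32989 of 56605 probes. For a symbol with several probes, the one of highest mean over all arrays was used. Genes well above background on at least 3 arrays were tested, antithrombin against saline, by a two-sided moderated test in limma 3.58.1 (lmFit, eBayes; R 4.3.3). P-values were adjusted by Benjamini-Hochberg over 32456 rows, with a threshold of 0.05. SEs are from that fit. On data simulated from the means and spreads of these 32456 genes, 48 of 100 genes changed 2-fold and 79 of 100 changed 4-fold were recovered. In it 4 unchanged genes were called. Its noise was drawn separately for each gene and array, with no deviation shared across genes as in saline mouse 2. The recovery therefore checks the code and is no estimate for the real arrays. No 2 arrays were the same data (highest r 0.996), and each label names a separate mouse. Alternatives are given in the closing section. Promoters were aligned with Biopython 1.88, and figures drawn with matplotlib 3.10.9.

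The members, the gene lists and the tests were chosen with earlier results of these data known. Named genes are all members, the 4 tested genes of each pathway list with the smallest p, a fixed set of further genes, and the 8 genes nearest to the members' mean. Some genes that the rule names are not reported here. Further interferon-induced genes (Gbp2, Gbp5, Rsad2), the flanking genes and Cenpm were named after their values were seen.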

Additional observations from a re-analysis of the deposited data

How the results depend on the processing

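All 6 members stayed above 0 under the 18 alternatives except Oasl1, which turned to -0.072 without saline replicate 2 and ran from there to 0.56 when single mice were left out. The median over the members ran from 0.72 to 0.98. Normexp moved Oas1g to 0.93, and the mean of the detected probes moved Oas2 to 0.81, where its dim probe gave 1.09. Genes called after adjustment numbered 2 in the fit reported, 1 with quantile normalisation, median centring, no filter on dim probes, a filter at all 6 arrays, a trended and robust variance, the slide row as a block or every probe singly, and from 0 to 3419 when single mice were left out (3419 without saline replicate 2). Among the other pathway genes the count of 0 ran from 0 to 13 on leaving out single mice. With the mouse number as a replicate block the count of genes was 0, the median over the members was 0.86, and deviations of same-numbered mice correlated at -0.01, -0.16 and -0.28, so the numbers gave no sign of pairing. The causes of these changes were not tested. The longer motif was in 2 of 5 member promoters and TTCNNNGAA in 1, against 3 for the paired GAAA motif. The second Oas2 probe was not well above background on every array, which limits what it can show.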
